A study of Mus musculus with 15 samples.

Results

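The tumour necrosis factor (TNF) superfamily was followed in heart and liver allografts of the mouse, which the study used as models of acute rejection. Its members were all genes with a symbol beginning with Tnfsf or Tnfrsf and a digit, together with Tnf, Lta, Ltb and Ltbr, and 1 receptor of that name pattern is not reported here. The rule set membership by names alone, with earlier results of these data known. It found 33 genes, 13 ligands and 20 receptors, of 32301 counted on the array. Each was read at its brightest probe, chosen by mean signal over all 15 arrays, allografts included. Of the 32301, 18217 carry a RefSeq symbol and the others are transcripts under the array's own identifiers. Shares of all genes are taken over both kinds. Tnfsf13 had no probe that could be matched to its name and was not analysed here.

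RNA was measured on 15 single-colour arrays, 3 in each of 5 groups. Cardiac allografts were hearts of B10 (C57BL/10, H-2b) mice placed heterotopically in the abdomen of sex-matched CBA (H-2k) recipients and taken at postoperative day 5 (POD5). Hepatic allografts were livers of B10.BR (H-2k) mice placed orthotopically in B10.D2 (H-2d) recipients and taken at POD5 or POD8, with 3 arrays at each day. The study used male mice, and no drug treatment is named for any group. The cardiac and hepatic control groups are called normal tissue in the labels and methods but isografts in the study's results, which leaves unclear whether they had been through surgery. The strain of the controls is not given, so strain and transplantation cannot be told apart, which bears first on Tnf, Lta and Ltb, neighbouring genes within the major histocompatibility complex. The arrays of a group are numbered samples, and p-values here measure the spread between them.

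Most ligands of the superfamily are made as trimers on the surface of immune cells and are then partly shed, and each binds 1 or several receptors on neighbouring cells. Some receptors carry a death domain and can start apoptosis, and others recruit TRAF adaptors that switch on NF-kappaB. In a rejecting graft the family is known for the costimulation of T cells, for inflammation of the vessel wall and for the killing of graft cells. Measured in whole tissue, a lower signal from fewer cells of a type cannot be told apart from less RNA per cell.

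The share of probes well above background ranged from 52.5% to 70.5% over the arrays. It was 52.5% to 57.0% on hepatic controls and 68.8% to 70.5% on cardiac controls. The 75th percentile of signal before normalization was 92.1 to 226 on hepatic controls, 338 to 710 on allografts and 1021 to 1247 on cardiac controls. Signal strength therefore cannot be told apart from group in the comparisons with controls. The cardiac controls filled a slide of their own, scanned in a later period than all other arrays, so slide, scan period and group cannot be told apart in any comparison with them. Hepatic control 1 stood apart, with the lowest 75th percentile of signal (92.1 against 165 to 1247 on the other 14 arrays) and the lowest correlations with its replicates (0.956 and 0.966, across probes, which are not independent). Liver calls of a member that changed without it are given beside the gene. Cardiac allograft 2 (0.973 and 0.975 against 0.991 between the other allografts) and hepatic POD5 allograft 3 (0.977 with both others against 0.992 between them) also correlated less with their replicates. The log2 of the summed signal of 6 cardiomyocyte genes was 18.16 to 19.29 on hearts and 8.78 to 10.72 on livers, where Myh6 and Ryr2 were above background on no array and the other 4 on some. For 5 hepatocyte genes it was 19.18 to 19.42 on livers and 5.88 to 7.39 on hearts, where Alb, Apoa1 and Ttr were above background on no array and the other 2 on some.

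Promoter sequences of 26 of the 33 members were found in a RefSeq table of GRCm38.p6, as 30 start sites with 250 bases before each. A match to the kappa-B motif, the site of NF-kappaB, lay on 1 strand or the other in 4 of these 30 (13.3%) and in 2382 of all 32851 promoters of that length (7.25%). GAAA repeated after any 2 bases, as in the interferon response element, was found on either strand in 4 of 30 (13.3%) and in 978 of all promoters (2.98%). Such a match is a description of the letters and not a bound site. The 6 sequences shown are those of the members that changed in the cardiac allografts and held a match. Each gives the last 120 bases before the start site, 5′ to 3′ on the strand of the gene, with the match in capitals (kappa-B in Ltb and Tnfrsf9, where 2 matches overlap, and the repeated GAAA in the other 4, read on the opposite strand in Ltb, Tnfrsf14, Tnfrsf1b and Tnfrsf17).
Ltb, chr17:35194387-35194506, plus strand: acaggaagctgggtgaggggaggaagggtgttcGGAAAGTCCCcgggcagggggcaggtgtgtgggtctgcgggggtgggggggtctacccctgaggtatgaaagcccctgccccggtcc
Tnfrsf9, 1 of its 2 start sites, chr4:150927879-150927998, plus strand: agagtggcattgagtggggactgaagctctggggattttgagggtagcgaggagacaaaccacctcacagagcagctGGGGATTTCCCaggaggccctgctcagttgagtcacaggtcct
Tnfsf13b, 1 of its 2 start sites, chr8:10006513-10006632, plus strand: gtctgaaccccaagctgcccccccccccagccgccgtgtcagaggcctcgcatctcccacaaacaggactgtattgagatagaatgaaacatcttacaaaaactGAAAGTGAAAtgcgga
Tnfrsf14, chr4:154928078-154928197, minus strand: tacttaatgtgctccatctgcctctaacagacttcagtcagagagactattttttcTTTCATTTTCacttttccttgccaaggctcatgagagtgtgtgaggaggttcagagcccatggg
Tnfrsf1b, chr4:145246871-145246990, minus strand: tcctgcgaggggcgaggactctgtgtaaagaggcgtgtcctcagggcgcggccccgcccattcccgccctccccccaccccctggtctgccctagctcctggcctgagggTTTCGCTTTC
Tnfrsf17, chr16:11313689-11313808, plus strand: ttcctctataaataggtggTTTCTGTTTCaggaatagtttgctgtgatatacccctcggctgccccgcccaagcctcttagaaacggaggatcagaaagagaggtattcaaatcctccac
Ltb, Tnfrsf9, Tnfsf13b, Tnfrsf14 and Tnfrsf1b were overexpressed in the cardiac allografts, and Tnfrsf17 was lower there, as described beside each gene.

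In cardiac allografts against cardiac controls at POD5, 20 of the 33 members changed, 17 higher and 3 lower, in Limma with Benjamini-Hochberg adjustment over all probes at 0.05. Over all 32167 genes tested, 30.8% were called, 15.4% higher and 15.4% lower. Of the 13 ligands 10 rose and none fell, and of the 20 receptors 7 rose and 3 fell. The median log2 difference of the members was 0.80, beside 0.03 for all genes. The 3 allograft arrays lay entirely above the controls for 21 members (29.9% of all genes) and entirely below for 4 (24.2% of all genes), together 25 members against 54.1% of all genes. Lta, Tnfrsf9, Tnf and Tnfrsf4 had the largest increases, and the decreases were those of Tnfrsf17, Tnfrsf19 and Tnfrsf23. The count lay between 16, without control 1 or control 2, and 21, without allograft 2. Without allograft 2 all 20 calls held, Tnfsf12 was added (-0.55), and the rise of Lta was 4.37 on the log2 scale in place of 5.09.

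In hepatic allografts at POD5, 6 members changed, against 3.31% of 32284 genes (2.5% higher and 0.805% lower): Tnfrsf9, Ltb, Tnf, Tnfsf14 and Tnfrsf1b rose and Tnfrsf19 fell. At POD8 the same 6 genes changed in the same directions and were joined by Tnfsf8, Tnfsf9 and Tnfrsf26, all higher, making 9 members against 5.09% of 32286 genes (3.55% higher and 1.54% lower). These 6 were also called in the heart, with the same signs, and 12 further members were called in the heart alone. The shares of all genes called in every comparison with controls, or in the heart alone, were not computed. The 2 hepatic comparisons share their 3 control arrays. The median log2 difference of the members was 0.79 at POD5 and 0.73 at POD8, beside -0.08 and -0.11 for all genes. On each day the arrays did not overlap for 17 members, 16 higher and 1 lower. For all genes the shares were 31.9% (12.2% higher and 19.6% lower) at POD5 and 31.7% (11.9% higher and 19.8% lower) at POD8. Of the 33 members, 14 were well above background on no hepatic control array and 13 on all 3. On the hepatic allografts 25 were so on all 3 arrays of each day. For 6 members at POD5 and 7 at POD8 neither group was above background. The member medians and counts therefore include signals at the background.

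The hepatic calls rested on few arrays. At POD5 the count was 0 without allograft 1, without allograft 2 or without control 3, with 13 members at an unadjusted p under 0.05 each time. It was 1 without control 2, 3 without allograft 3 (Tnfrsf9, Tnfsf14 and, newly, Tnfrsf23 at 1.40, which was above background on no liver array) and 5 without control 1. With slide as a random block it was 3 (Tnfrsf9, Ltb and Tnfsf14). No slide held both POD5 allografts and hepatic controls, so this block cannot separate slide from group. POD5 allograft 3 lay on the slide of the cardiac allografts, apart from its replicates. At POD8 the count was 3 without allograft 1 or without allograft 2, 5 without allograft 3, 7 without control 2 or without control 3, and 12 without control 1. Within the slide that held both groups (slide as a fixed block, resting on allografts 1 and 2 and controls 1 and 2) no member was called at POD8 and 14 had an unadjusted p under 0.05. For these alternative fits the share of all genes called, or at such an unadjusted p, was not computed. The log2 differences of the 9 called members in that fit lay close to those over all arrays, for example 5.44 in place of 5.03 for Tnfrsf9 and 2.73 in place of 2.92 for Ltb.

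The size of a fold for dim members depended on how background was treated. With normexp background correction, whose added offset of 50 draws low signals together, Lta in the heart was 7.31-fold higher and Tnfrsf9 was 7.89-fold higher in the heart, 3.23-fold at hepatic POD5 and 3.25-fold at POD8, all called. Tnf was then 9.11-fold higher in the heart and 2.19- and 3.02-fold higher in the liver, and Tnfrsf4 9.33-fold and Tnfsf13b 3.74-fold higher in the heart. Tnfrsf14 and Tnfsf9 were 1.74- and 1.71-fold higher and Tnfsf8 1.29-fold higher in the heart, with Tnfsf8 1.79-fold higher at POD8. Tnfrsf19, Tnfrsf17 and Tnfrsf23 were 1.63-, 1.6- and 1.18-fold lower in the heart. Tnfsf4 and Tnfsf15 in the heart and Tnfsf9 and Tnfrsf26 at POD8 were no longer called. Tnfsf10 and Tnfrsf13c on both hepatic days and Tnfsf8 at POD5 were newly called, making 9 members on each day. The folds given beside each gene are those without this offset.

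**Figure D1:**
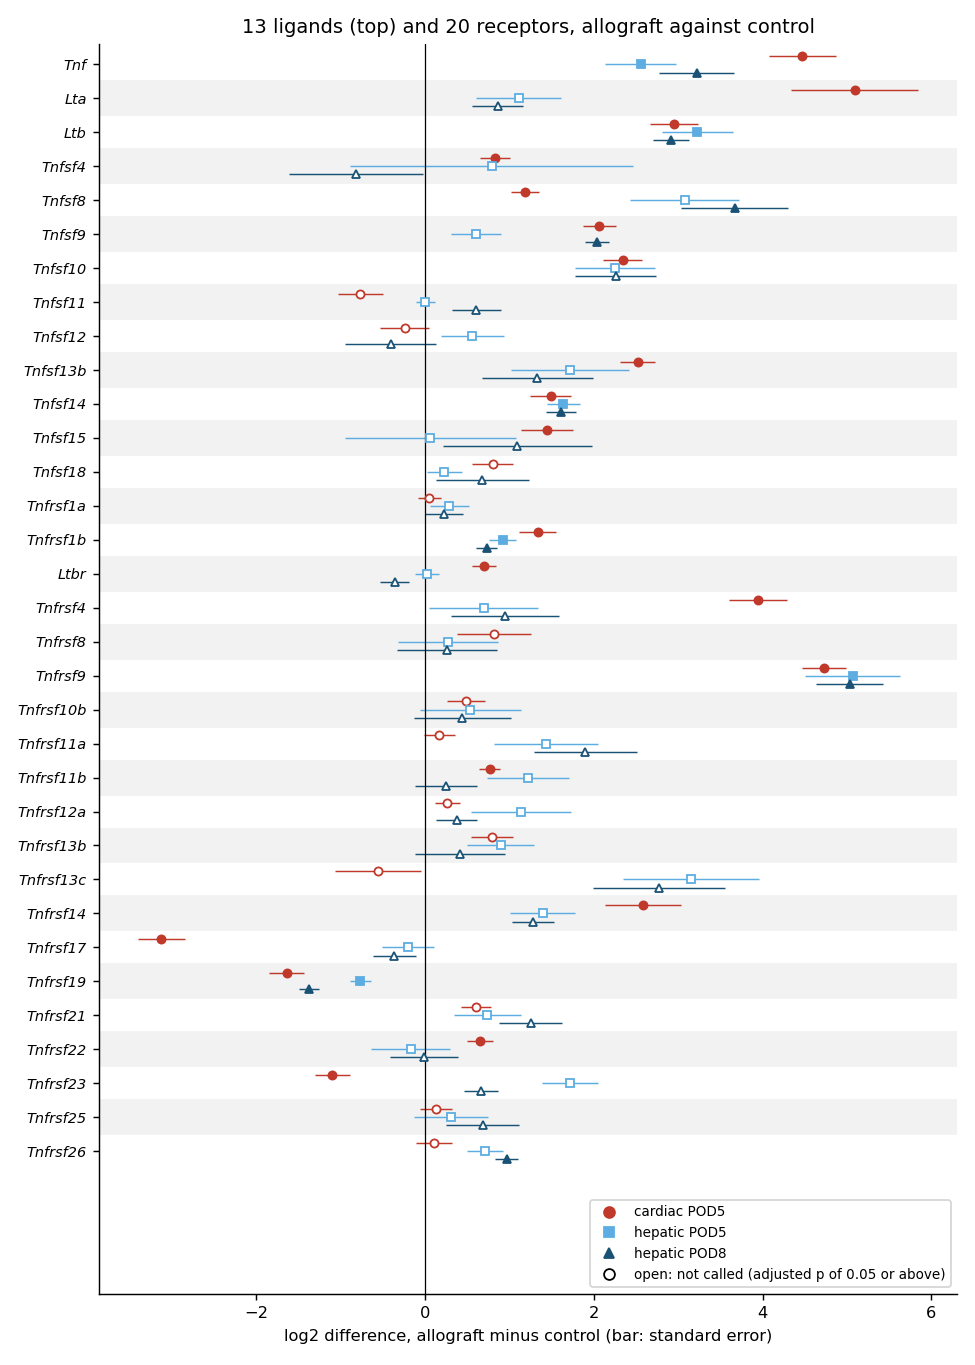
Log2 difference of signal, allograft minus control, for the 13 ligands and 20 receptors in the cardiac POD5, hepatic POD5 and hepatic POD8 comparisons (points, with standard error bars; filled where called). Tnfrsf9, Tnf and Ltb stand far to the right in all 3 comparisons and Tnfrsf19 to the left in all 3, while Lta (5.09 against 1.11 and 0.86) and Tnfrsf4 (3.95 against 0.70 and 0.95) stand far right in the heart alone.

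Tnf, the founding cytokine of the family, made mainly by macrophages and T cells, had log2 signals of 9.27, 10.73 and 9.73 on the cardiac allografts and of 5.70, 5.36 and 5.27 on the cardiac controls. Its hepatic signals were 6.98, 6.96 and 6.80 at POD5, 7.79, 7.67 and 7.28 at POD8 and 3.42, 4.91 and 4.75 on the controls, of which the lowest is control 1. Every allograft lay above every control of its organ. The log2 difference was 4.47 ± 0.40 (standard error; 22.1-fold, adjusted p = 0.00182) in cardiac allografts, 2.55 ± 0.42 (5.87-fold, adjusted p = 0.047) in hepatic POD5 allografts and 3.22 ± 0.44 (9.3-fold, adjusted p = 0.0255) at POD8. The differences were 2.09 (adjusted p = 0.0212) and 2.76 (adjusted p = 0.00981) without hepatic control 1.

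Lta, lymphotoxin alpha of activated lymphocytes, which binds the same receptors as Tnf, had log2 signals of 7.40, 10.38 and 9.01 on the cardiac allografts against 3.78, 3.68 and 4.05 on the controls. The 3 allografts spread widely and all lay far above the controls. The rise was 5.09 ± 0.75 on the log2 scale (34.1-fold, adjusted p = 0.00714). In the liver Lta read 3.73, 3.76 and 5.17 at POD5, 4.18, 3.94 and 3.80 at POD8 and 3.64, 2.54 and 3.16 on the controls, where no array was well above background, and it was called on neither day (adjusted p = 0.289 and 0.187).

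Ltb, which joins Lta to form the membrane lymphotoxin that drives lymphoid tissue, had log2 signals of 12.94, 13.22 and 13.52 on cardiac allografts and 10.25, 9.80 and 10.76 on cardiac controls. Hepatic signals were 12.20, 12.54 and 13.57 at POD5, 12.43, 12.51 and 12.45 at POD8 and 9.95, 9.53 and 9.17 on controls. The gap between allografts and controls was wide in both organs and no array overlapped. Ltb rose by 2.95 ± 0.29 on the log2 scale in the heart (7.73-fold, adjusted p = 0.00237), by 3.23 ± 0.42 in hepatic POD5 allografts (9.35-fold, adjusted p = 0.0286) and by 2.92 ± 0.22 at POD8 (7.55-fold, adjusted p = 0.00522). Without hepatic control 1 the POD5 difference of Ltb was 3.40, with an adjusted p of 0.0515.

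Tnfsf14 (LIGHT), a T cell ligand of the lymphotoxin beta receptor and of Tnfrsf14, had log2 signals of 9.38, 9.87 and 9.62 on the cardiac allografts and of 8.21, 7.72 and 8.47 on their controls. The hepatic signals were 7.43, 7.46 and 8.01 at POD5, 7.85, 7.67 and 7.28 at POD8 and 6.03, 6.01 and 5.94 on the controls. Its increases were alike in size, at 1.49 ± 0.24 (2.81-fold, adjusted p = 0.00901), 1.64 ± 0.20 (3.12-fold, adjusted p = 0.0242) and 1.61 ± 0.18 (3.05-fold, adjusted p = 0.0139) in that order. Without hepatic control 1 the POD5 difference was 1.66 with an adjusted p of 0.0541.

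Of the receptors for these ligands, Tnfrsf1a, the widely expressed death-domain receptor for Tnf, was called in no comparison with controls. Its log2 signals were 12.60, 12.74 and 12.72 on cardiac allografts and 12.84, 12.40 and 12.66 on cardiac controls, overlapping throughout. In the liver they were 12.38, 12.50 and 12.38 at POD5, 12.23, 12.34 and 12.48 at POD8 and 11.72, 12.15 and 12.52 on controls. Tnfrsf1b, the inducible Tnf receptor without a death domain, did rise. It read 9.98, 10.12 and 10.55 on cardiac allografts and 9.14, 8.58 and 8.93 on their controls, and 10.11, 9.75 and 9.91 at hepatic POD5, 9.62, 9.75 and 9.84 at POD8 and 8.88, 9.14 and 8.99 on hepatic controls. No allograft overlapped a control, with differences of 1.33 ± 0.22 (2.52-fold, adjusted p = 0.00949), 0.92 ± 0.16 (1.89-fold, adjusted p = 0.0493) and 0.73 ± 0.13 (1.66-fold, adjusted p = 0.0412). A dimmer second probe of Tnfrsf1b gave 1.34 in the heart but -0.06 and -0.45 in the liver, neither of them called, so the 2 probes disagree on the liver. Without hepatic control 1 the brighter probe was not called on either day (adjusted p = 0.0963 at POD5 and 0.0572 at POD8).

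Ltbr, the lymphotoxin beta receptor of stromal and parenchymal cells, read 11.95, 12.35 and 11.98 on cardiac allografts against 11.47, 11.27 and 11.46 on controls, a small rise of 0.70 ± 0.14 without overlap (1.62-fold, adjusted p = 0.0186). Scaling to the 75th percentile gave 0.65 for Ltbr with an adjusted p of 0.0766. In the liver it read 12.97, 13.01 and 13.05 at POD5, 12.45, 12.55 and 12.88 at POD8 and 13.19, 12.97 and 12.81 on controls, overlapping on both days. Tnfrsf14 (HVEM), which binds Tnfsf14 and also an inhibitory lymphocyte receptor, read 5.57, 7.12 and 5.88 on cardiac allografts against 3.65, 3.26 and 3.91. It rose by 2.58 ± 0.45 (5.99-fold, adjusted p = 0.0112). Its hepatic signals were 5.17, 5.0 and 6.31 at POD5, 5.56, 5.67 and 4.92 at POD8 and 4.08, 4.34 and 3.88 on controls, where no array was well above background. The hepatic allografts all lay above those values without being called (adjusted p = 0.132 and 0.0558).

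**Figure D2:**
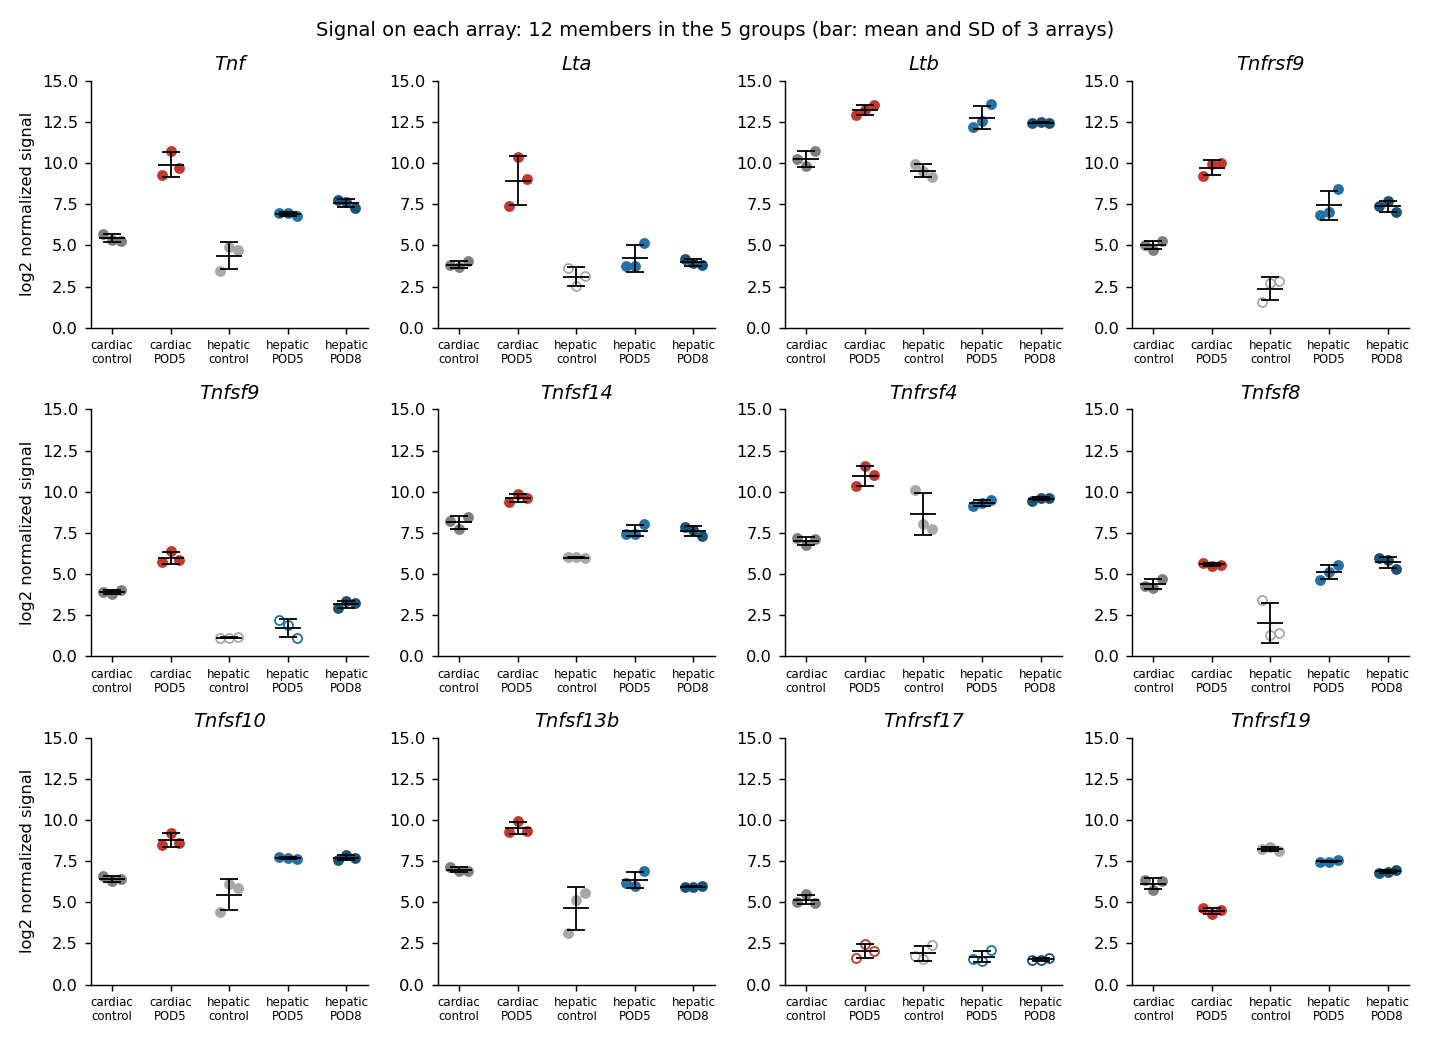
Normalized log2 signal of 12 members on each of the 15 arrays (points; open where no array of the group was well above background), with the mean and SD of the 3 arrays of a group. Allografts and controls are clearly separated for Tnf, Ltb and Tnfrsf9 in both organs, Lta is high on the cardiac allografts alone, and the lowest hepatic control point of Tnf, Tnfsf10 and Tnfsf13b and the highest of Tnfrsf4 belong to control 1.

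Among the receptors and ligands of T cell costimulation, 6 of 9 rose in the heart (15.4% of all genes), 1, Tnfrsf9, in hepatic POD5 allografts (2.5%) and 3 at POD8 (3.55%). Tnfrsf9 (CD137), which appears on T cells and natural killer cells after activation, had the largest hepatic increase of the members on both days. Its log2 signals were 9.25, 9.95 and 10.02 on the cardiac allografts and 5.05, 4.74 and 5.26 on the cardiac controls. In the liver they were 6.85, 7.01 and 8.44 at POD5 and 7.41, 7.72 and 7.06 at POD8, against 1.57, 2.69 and 2.83 on controls that were all below the limit for well above background. It rose 26.4-fold in the heart (4.72 ± 0.26, adjusted p = 0.000747). In the liver it was at least 8.58-fold higher at POD5 (log2 difference 5.07 ± 0.56, adjusted p = 0.0198) and at least 8.37-fold higher at POD8 (5.03 ± 0.39, adjusted p = 0.00606), where "at least" sets the dim group at the lowest signal that counts as well above background on each array. The log2 differences were 4.70 and 4.66, both called, without hepatic control 1. A dimmer second probe of Tnfrsf9 rose in the heart (4.29) and at POD8 (3.64) and was not called at POD5 (2.54, adjusted p = 0.125).

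Tnfsf9, the ligand of Tnfrsf9 on antigen-presenting cells, read 5.71, 6.37 and 5.83 on cardiac allografts and 3.90, 3.79 and 4.02 on controls, a rise of 2.07 ± 0.20 (4.19-fold, adjusted p = 0.0022). In the liver it was dim: 2.20, 1.88 and 1.12 at POD5, 2.93, 3.34 and 3.23 at POD8 and 1.12, 1.11 and 1.15 on controls. Only 1 of these 9 hepatic arrays, a POD8 allograft, was well above background. The POD8 difference of 2.04 was called (adjusted p = 0.00407), but no fold can be given because the signals lie at the background, and it was not called after normexp background correction or 75th percentile scaling.

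Tnfrsf4 (OX40), a costimulatory receptor of activated CD4 T cells, read 10.33, 11.57 and 10.99 on cardiac allografts and 7.16, 6.75 and 7.14 on cardiac controls. It rose by 3.95 ± 0.34 (15.4-fold, adjusted p = 0.00169). In the liver it read 9.13, 9.34 and 9.49 at POD5, 9.46, 9.61 and 9.64 at POD8 and 10.08, 8.05 and 7.73 on controls. Control 1 lay above all 6 hepatic allografts and the other controls below them all. Over all arrays the hepatic differences were 0.70 (adjusted p = 0.585) and 0.95 (adjusted p = 0.448), and without control 1 they were 1.42 (adjusted p = 0.0477) and 1.67 (adjusted p = 0.0138). Tnfsf4, the ligand of Tnfrsf4, read 3.76, 3.47 and 3.31 on cardiac allografts and 2.52, 2.57 and 2.96 on controls, with 3 of these 6 arrays well above background. It was called higher in the heart (0.83, adjusted p = 0.0217), and not after normexp correction. In the liver 1 allograft at POD5 read 6.29 and 1 control read 3.87, while the other 7 arrays lay between 1.13 and 1.33.

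Tnfsf8 (CD30 ligand) read 5.68, 5.51 and 5.54 on cardiac allografts and 4.28, 4.17 and 4.71 on controls, a rise of 1.19 ± 0.17 (2.28-fold, adjusted p = 0.00596). Hepatic signals were 4.66, 5.13 and 5.53 at POD5, 5.94, 5.85 and 5.30 at POD8 and 3.42, 1.27 and 1.39 on controls, none of which was well above background. It was at least 2.58-fold higher at POD8 (3.67 ± 0.63, adjusted p = 0.0422). At POD5 it was at least 1.71-fold higher without being called (3.08, adjusted p = 0.075), and without control 1 it was called (3.87, adjusted p = 0.023). Its receptor Tnfrsf8 (CD30), of activated T and B cells, was well above background on 1 of the 15 arrays. That array was a hepatic allograft at POD5, where Tnfrsf8 read between 2.64 and 3.11, and it was called in no comparison.

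The other members of the costimulatory set moved little or were dim. Tnfsf15 (TL1A), an endothelial and myeloid ligand, was called higher in the heart (1.44, adjusted p = 0.0207) although none of the 6 cardiac arrays was well above background, and it was not called after normexp correction. Its receptor Tnfrsf25 (DR3), of T cells, read 7.78 to 8.38 on cardiac allografts and 7.79 to 8.08 on controls, and it was called on neither hepatic day (0.31 and 0.68). Tnfsf18, a costimulatory ligand of endothelial and antigen-presenting cells, read 4.79 to 4.99 on cardiac allografts and 3.64 to 4.56 on controls and just missed the threshold (0.80, adjusted p = 0.0602), and it was above background on no liver array.

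B cell survival genes differed between each other. Tnfsf13b (BAFF), the survival factor for B cells made by myeloid and stromal cells, read 9.27, 9.93 and 9.35 on cardiac allografts against 7.15, 6.90 and 6.93 on controls and rose by 2.52 ± 0.20 (5.73-fold, adjusted p = 0.00152). Hepatic allografts read 6.19, 5.97 and 6.89 at POD5, 5.95, 5.92 and 6.02 at POD8 and 3.16, 5.16 and 5.59 on controls. All hepatic allografts lay above the controls, and the differences of 1.72 and 1.33 were not called (adjusted p = 0.249 and 0.312). They were 0.98 and 0.59 without control 1, again not called.

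Tnfrsf17 (BCMA), a receptor of plasma cells, had the largest decrease among the members. It read 1.59, 2.47 and 2.06 on cardiac allografts, none well above background, and 5.03, 5.50 and 4.96 on controls, and was at least 3.02-fold lower in the allografts (-3.12 ± 0.27, adjusted p = 0.00179). It was above background on no liver array. Tnfrsf13c, the main BAFF receptor of B cells, read 4.63, 4.81 and 4.85 on cardiac allografts and 4.55, 4.96 and 6.46 on controls, which overlap. In the liver it read 4.69, 5.27 and 5.70 at POD5 and 5.07, 4.95 and 4.51 at POD8 against 1.17, 3.82 and 1.22 on controls that were not well above background. The hepatic differences of 3.15 and 2.77 were not called (adjusted p = 0.113 and 0.121). Tnfrsf13b (TACI), another receptor of this set, was well above background on no array, with log2 signals from 1.28 to 3.30.

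Among TRAIL and the death receptors, Tnfsf10 (TRAIL), an interferon-inducible ligand that kills susceptible cells, read 8.48, 9.25 and 8.64 on cardiac allografts and 6.62, 6.27 and 6.44 on controls. It rose by 2.34 ± 0.23 (5.08-fold, adjusted p = 0.00242). On the livers it read 7.78, 7.73 and 7.64 at POD5, 7.60, 7.88 and 7.69 at POD8 and 4.39, 6.11 and 5.89 on controls, all below the allografts. The hepatic differences of 2.25 and 2.26 lay close to that in the heart and missed the threshold (adjusted p = 0.0766 and 0.0676). Without hepatic control 1, the lowest of the controls, they were 1.72 (adjusted p = 0.0253) and 1.73 (adjusted p = 0.0128).

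Tnfrsf10b, the death receptor for TRAIL, read 5.43, 5.83 and 5.80 on cardiac allografts and 5.60, 4.89 and 5.12 on controls and was called in no comparison with controls. Its hepatic signals were 5.20, 4.32 and 4.62 at POD5, 4.41, 4.51 and 4.94 at POD8 and 2.92, 4.86 and 4.77 on controls, overlapping on both days. A dimmer probe of Tnfrsf10b lay above all hepatic controls on both days (0.89 and 0.73) without being called (adjusted p = 0.148 and 0.147). No hepatic control was well above background at that probe. The dimmest probe, above background on none of these liver arrays, overlapped at POD5 (0.33) and lay above the controls at POD8 (0.88), again not called. The probes thus disagree on overlap in the liver. Tnfrsf22 and Tnfrsf23, mouse decoy receptors for TRAIL without a death domain, went opposite ways in the heart. Tnfrsf22 rose from 5.34, 5.06 and 5.52 to 5.93, 6.12 and 5.83 (0.65 ± 0.16, 1.57-fold, adjusted p = 0.029). Tnfrsf23 fell from 4.38, 4.27 and 4.65 to 3.59, 3.45 and 2.96 (-1.10 ± 0.21, adjusted p = 0.0141), with 1 allograft well above background. Neither was called in the liver, where Tnfrsf23 was above background on no array. Tnfrsf26, their neighbour and close relative, was called at hepatic POD8 alone. It read 5.27, 5.51 and 5.29 there, 5.07, 5.47 and 4.77 at POD5 and 4.51, 4.42 and 4.24 on controls that were not well above background, and was at least 1.89-fold higher at POD8 (0.97 ± 0.13, adjusted p = 0.0249). Cross-hybridization between these 3 related genes was not tested. Tnfrsf21 (DR6), which has a death domain and is found on lymphocytes and neurons, narrowly missed the threshold in the heart (0.61, adjusted p = 0.0517), and a dimmer probe of it was called there (0.76). It was called at POD8 (0.84, adjusted p = 0.027) without hepatic control 1.

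In the group of RANK and osteoprotegerin, Tnfrsf11b (osteoprotegerin), the soluble decoy for RANK ligand, read 8.12, 8.30 and 8.25 on cardiac allografts and 7.55, 7.58 and 7.24 on controls. It rose by 0.76 ± 0.13 (1.7-fold, adjusted p = 0.00969), and it read 7.27 to 9.31 on hepatic allografts and 6.64 to 7.89 on hepatic controls without being called. Tnfsf11 (RANK ligand) was lower without overlap on the cardiac allografts (4.09, 4.33 and 4.64 against 5.02, 4.74 and 5.59) and missed the threshold (adjusted p = 0.0827). At this probe it was above background on no liver array. A dimmer second probe of Tnfsf11 overlapped in the heart (-0.53, adjusted p = 0.413). That probe was above background among the hepatic controls but on no hepatic allograft, and its hepatic differences of -1.28 and -1.59 were not called. Tnfrsf11a (RANK), the receptor of osteoclasts and dendritic cells, was called in none of the 3 comparisons with controls, at 0.17, 1.43 and 1.90, and without hepatic control 1 it was called at POD8 (1.23, adjusted p = 0.0336). A dimmer second probe of Tnfrsf11a was called higher in the heart (0.88, adjusted p = 0.0214), so its 2 probes disagree there.

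Tnfrsf19 (TROY), an orphan receptor of epithelial and neural progenitors, was the 1 member that fell in all 3 comparisons. It read 4.67, 4.27 and 4.51 on cardiac allografts and 6.35, 5.74 and 6.28 on their controls, and 7.46, 7.45 and 7.55 at hepatic POD5, 6.79, 6.88 and 6.97 at POD8 and 8.26, 8.37 and 8.14 on hepatic controls. The groups did not overlap. The log2 difference was -1.64 ± 0.21 (3.11-fold lower, adjusted p = 0.00458) in the heart, -0.77 ± 0.13 (1.7-fold lower, adjusted p = 0.0469) at POD5 and -1.37 ± 0.12 (2.59-fold lower, adjusted p = 0.00749) at POD8. Without hepatic control 1 the POD5 difference had an adjusted p of 0.0863. Tnfsf12 (TWEAK), a ligand of many leukocytes, overlapped between allografts and controls in both organs. Its receptor Tnfrsf12a (Fn14), which injured tissue induces, read 13.84 to 14.12 on cardiac allografts and 13.56 to 13.98 on controls, and on the livers 9.54 to 11.69 at POD5, 9.78 to 9.97 at POD8 and 9.10 to 9.98 on controls, and was not called.

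Between the hepatic allografts of POD8 and POD5, no member and no other gene was called (0% of 32292 genes), while 7 members had an unadjusted p under 0.05 in Limma, and 6 in the methods' t-test. Over all probes 5299 of 41165 had such a p in Limma. The standardized fold change (SFC) of the methods called 1, Tnfsf11, which at its brightest probe was above background on no liver array. The 3 with the smallest p were Tnfrsf19 (-0.61, adjusted p = 0.221), Tnfsf9 (1.43, adjusted p = 0.238) and Tnf (0.66, adjusted p = 0.265). The days did not overlap for these 3 or for 9 members in all, 5 higher at POD8 (8.84% of all genes) and 4 lower (11.1%), against 20% of all genes. No slide held arrays of both days.

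Whether the allograft difference itself differed between heart and liver at POD5 was tested as an interaction over 12 arrays. The heart and liver grafts also differed in donor and recipient strains and in placement, which cannot be told apart from organ here. It was called for 7 members, against 13.9% of 32150 genes (6.71% higher and 7.17% lower). Lta (3.98 ± 0.95, adjusted p = 0.0242), Tnfrsf4 (3.25 ± 0.77, adjusted p = 0.023) and Tnfsf9 (1.46 ± 0.37, adjusted p = 0.0308) had the larger increase in the heart. Tnfrsf17 (-2.93 ± 0.43, adjusted p = 0.00396), Tnfrsf23 (-2.82 ± 0.41, adjusted p = 0.00347) and Tnfrsf13c (-3.72 ± 1.0, adjusted p = 0.0369) were lower in the heart relative to the liver, and Tnfrsf19 (-0.87 ± 0.25, adjusted p = 0.0495) fell further there. For Lta, Tnfrsf13c, Tnfrsf17, Tnfrsf23 and Tnfsf9 no hepatic control array was well above background, so their hepatic difference is not a measured fold. For Tnfrsf17, Tnfrsf23 and Tnfsf9 no hepatic POD5 allograft was well above background either, so the liver side of their interaction lies at the background. Tnf, with 4.47 against 2.55, was not called (1.91, adjusted p = 0.0652), and neither was Tnfrsf9 (-0.34, adjusted p = 0.753). With slide as a random block 3 of the 7 were called (Tnfsf9, Tnfrsf17 and Tnfrsf23), and the count ranged from 2, without cardiac control 3, to 7 when 1 array was left out. It was also 7 without hepatic control 1, where Tnfrsf13c, Tnfrsf19 and Tnfsf9 lost their call, and Tnf (2.38, adjusted p = 0.0157), Tnfsf13b (1.53, adjusted p = 0.0396) and Tnfsf8 (-2.67, adjusted p = 0.0032) gained one.

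**Figure D3:**
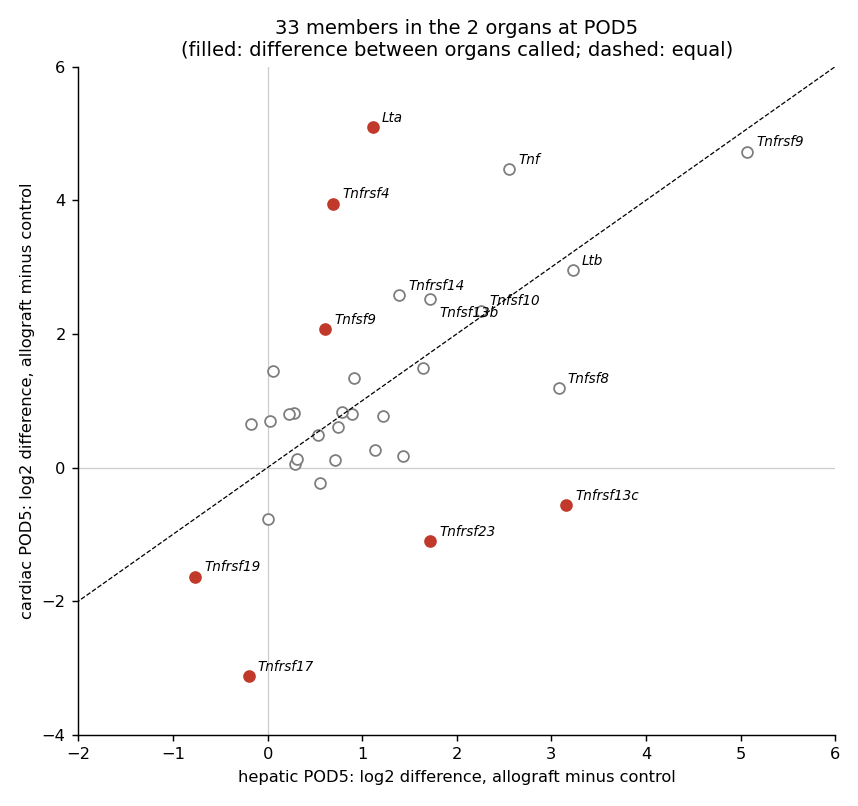
Log2 difference, allograft minus control, of the 33 members at POD5 in the liver (horizontal) and in the heart (vertical), with a dashed line of equal differences and filled points where the interaction was called. Tnfrsf9 and Ltb lie near the line at high values, Lta and Tnfrsf4 lie far above it, and Tnfrsf17, Tnfrsf23 and Tnfrsf13c lie below it.

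Between the controls, 18 members differed, 14 higher in the heart and 4 higher in the liver, against 47.7% of 32166 genes (24.3% higher in the heart and 23.4% higher in the liver). The arrays did not overlap for 23 members, 18 higher in the heart and 5 in the liver, against 66.6% of all genes (28.9% and 37.6%). Organ, slide and scan period cannot be told apart here, and the strain of either control group is not given. Tnfrsf12a was far higher in the heart, at 13.68, 13.98 and 13.56 in the heart and 9.10, 9.44 and 9.98 in the liver (4.23 ± 0.26, 18.8-fold, adjusted p = 0.000162). Tnfsf15 read 1.43, 1.59 and 2.49 in the heart, where no array was well above background, and 4.12, 6.54 and 7.46 in the liver, and was at least 11.6-fold higher in the liver (adjusted p = 0.0137). Tnfsf11 read 5.02, 4.74 and 5.59 in the heart and 1.14, 1.13 and 1.19 in the liver, which gave at least 1.73-fold more in the heart (adjusted p = 0.00014). A dimmer second probe of Tnfsf11 was above background in both organs, overlapped between them and was not called (1.83, adjusted p = 0.317). The call of Tnfsf11 thus rests on its brighter probe. Tnfrsf17, Tnfrsf13c and Tnfrsf23 were above background in the heart alone (adjusted p = 0.000561, 0.0324 and 4.54e-05), with bounds of at least 1.78-, 1.99- and 1.07-fold. Ltbr, Tnfrsf19 and Tnfrsf22 were lower in the heart, with log2 differences of -1.59, -2.13 and -1.89. The count ranged from 11, without cardiac control 2, to 21, without hepatic control 1, where Tnfrsf13c lost its call and Lta, Tnf, Tnfrsf4 and Tnfrsf8 gained one.

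**Figure D4:**
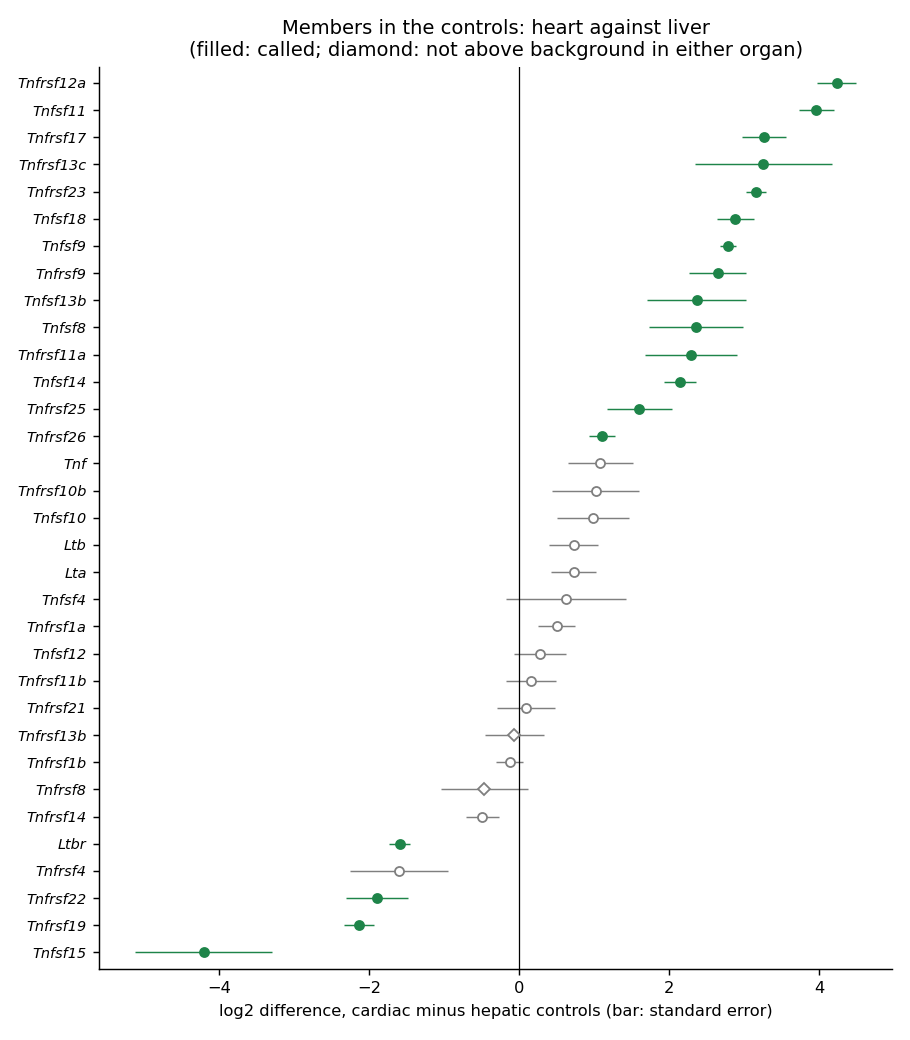
Log2 difference of the 33 members between the control groups, heart minus liver (points, with standard error bars; filled where called, diamonds where neither organ had an array well above background). Tnfrsf12a is at the top with 4.23 and Tnfsf15 at the bottom with -4.20, and 14 of the 18 called members lie on the heart's side.

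The signalling genes that the receptors act through were followed as a list of 25 adaptors, kinases, NF-kappaB subunits and inhibitors. In the cardiac allografts 17 rose and none fell, in the liver 3 rose at POD5 and 5 at POD8, beside 15.4%, 2.5% and 3.55% of all genes called higher. The list's median log2 difference was 0.79, 0.08 and 0.25, beside 0.03, -0.08 and -0.11 for all genes. Traf1, an adaptor of Tnfrsf1b and Tnfrsf9 that NF-kappaB induces, read 10.88, 11.07 and 11.25 on cardiac allografts against 8.44, 8.06 and 8.40, and 8.75, 9.15 and 9.54 at hepatic POD5, 9.38, 9.40 and 9.20 at POD8 and 6.71, 6.95 and 6.6 on hepatic controls. All allografts lay clearly above the controls, by 6.82-fold (adjusted p = 0.000771), 5.25-fold (adjusted p = 0.0168) and 5.95-fold (adjusted p = 0.00238). Tnfaip3, the ubiquitin-editing inhibitor that ends NF-kappaB signalling, read 10.89, 11.35 and 11.25 on cardiac allografts against 8.85, 8.41 and 9.19, and 9.53, 9.09 and 9.97 at POD5, 9.56, 9.90 and 9.61 at POD8 and 7.78, 8.11 and 7.97 on hepatic controls. It rose 5.09-fold, 2.99-fold and 3.33-fold (adjusted p = 0.00258, 0.0455 and 0.00835).

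Nfkbie, an inhibitor that holds NF-kappaB in the cytoplasm, read 11.13, 11.58 and 11.42 on cardiac allografts against 8.65, 8.07 and 8.33. Hepatic allografts read 9.68, 9.60 and 9.60 at POD5, 9.55, 9.62 and 9.55 at POD8 and 8.12, 8.24 and 8.49 on controls, again without overlap. Its increase was 8.15-fold in the heart (adjusted p = 0.00101), 2.54-fold at POD5 (adjusted p = 0.0188) and 2.44-fold at POD8 (adjusted p = 0.0119). The subunits of the alternative NF-kappaB pathway, which Ltbr and Tnfrsf4 use, moved less than Traf1, Tnfaip3 and Nfkbie. Rela, another NF-kappaB subunit on the list, was called higher in the heart (0.77, adjusted p = 0.00803). In the liver Rela was not called (-0.36 at POD5 and -0.13 at POD8). Relb read 10.99, 11.61 and 11.13 on cardiac allografts against 10.36, 10.11 and 10.25, and 9.76, 9.57 and 10.04 at hepatic POD5, 10.14, 10.28 and 9.76 at POD8 and 8.75, 9.09 and 8.65 on hepatic controls, with no overlap. Relb rose 2.01-fold in the heart (adjusted p = 0.0143) and 2.35-fold at POD8 (adjusted p = 0.0365) and was 1.95-fold higher at POD5 without being called (adjusted p = 0.0715). Nfkb2 read 10.14, 10.45 and 10.37 on cardiac allografts against 9.86, 9.62 and 9.58, without overlap, and overlapped in the liver at POD8 (9.36, 9.46 and 8.73 against 8.67, 8.92 and 8.29) and at POD5 (9.14, 8.75 and 9.64). Nfkb2 rose 1.55-fold in the heart (adjusted p = 0.0201) and was not called in the liver, with differences of 0.55 and 0.56. Traf5, an adaptor of Tnfrsf4, read 9.41, 9.64 and 9.62 on cardiac allografts against 8.31, 8.05 and 8.24. Hepatic signals of Traf5 were 8.94, 8.97 and 9.76 at POD5, 8.88, 9.08 and 9.06 at POD8 and 8.65, 8.28 and 8.48 on controls, with no overlap in either organ. It rose 2.56-fold in the heart (adjusted p = 0.00168) and was not called in the liver (0.75 and 0.53). At hepatic POD5 none of the list was called without allograft 1, without allograft 2 or without control 2 (7 or 8 at an unadjusted p under 0.05), 1 without allograft 3 and 2 without control 1 or control 3. At POD8 the count was 1 without allograft 1, 2 without allograft 2 or 3, and 3 without any 1 of the controls, and with slide as a fixed block it was 0, with 12 at an unadjusted p under 0.05.

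**Figure D5:**
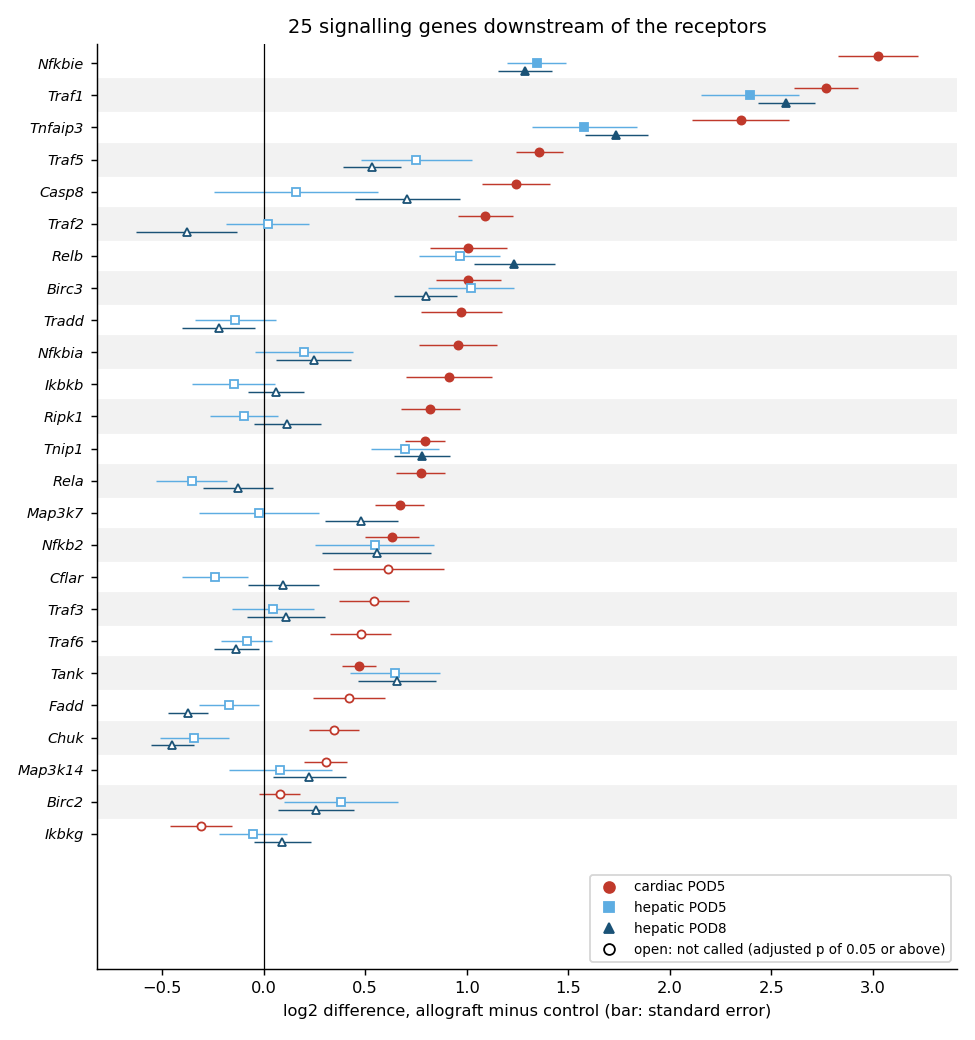
Log2 difference, allograft minus control, of 25 signalling genes downstream of the receptors in the 3 comparisons with controls (points, with standard error bars; filled where called). Nfkbie, Traf1 and Tnfaip3 lead in all 3, and 17 genes are filled for the heart against 3 and 5 for the liver.

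Markers of other cell types moved in the same comparisons. Of 6 T cell genes (Cd3d, Cd3e, Cd3g, Cd2, Cd5 and Lck) all rose in the heart and 5 rose in the liver on each day, and all but Cd3e were called there. The log2 of their summed signal was 13.19 to 13.73 on cardiac allografts and 8.69 to 9.22 on controls, and 12.61 to 13.37 at hepatic POD5, 12.26 to 12.64 at POD8 and 8.83 to 9.10 on hepatic controls. Of 4 natural killer cell genes 4 rose in the heart, none at hepatic POD5 (3 at an unadjusted p under 0.05) and 3 at POD8. Of 4 macrophage genes none was called in the heart (2 at an unadjusted p under 0.05) and 1, Mpeg1, rose in the liver on each day, with summed signals of 15.22 to 15.97 on cardiac allografts, 14.82 to 15.44 on their controls, 15.25 to 15.72 on hepatic allografts and 13.04 to 14.30 on hepatic controls, the lowest being control 1. All 5 endothelial genes fell in the heart (summed signal 10.75 to 11.46 against 12.63 to 12.81) and none was called in hepatic allografts (unadjusted p under 0.05 for 0 on POD5 and for 1 on POD8). Of 6 cardiomyocyte genes 3 (Pln, Ryr2 and Tnni3) fell in the heart, with a list median of -1.25. On livers Actc1 was called higher (1.77) and Ryr2, above background on no liver array, lower at POD5, and Tnnt2 lower at POD8. Of 4 neutrophil genes 1, Csf3r, rose in the heart (0.75), while S100a8, S100a9 and Mmp8 read -2.12, -1.48 and -2.12 without being called, and the summed signal was 13.04 to 15.07 on cardiac allografts and 15.05 to 15.74 on controls. None of the neutrophil genes was called in the liver (0 at an unadjusted p under 0.05 on either day). The part of these cell types in the differences of the 33 members was not tested.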

How the data were processed

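The deposited intensity of each spot is the processed signal of the scanner software, a linear intensity after local background subtraction and detrending, which the authors did not normalize between arrays in these files. Spots marked as outliers (47 to 113 per array) were left out, no spot was saturated, log2 was taken, spots of a probe were averaged and all 15 arrays were quantile normalized. Each comparison was fitted on its own arrays with limma 3.58.1 in R 4.3.3 (lmFit, eBayes), Benjamini-Hochberg adjusted over all probes, and called at 0.05. A probe was well above background when at least 0.5 of its spots were so marked. The files used here hold no gene name column: 26690 of 41174 probes (64.8%) were named through RefSeq accessions (GRCm38.p6). Probes of a gene were not averaged.

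Every member was named. Values on every array were given for called members without overlap among the 10 largest differences of each comparison with controls, their ligands or receptors, the 4 largest called signalling genes, Tnfaip3, Nfkb2 and Relb. Elsewhere up to 6 called members were named, or the 3 with the smallest p. Genes named outside this rule, with values, were added after those values were seen. Members and lists were chosen with earlier results of these data known. Of 200 simulated probes shifted by 3 on the log2 scale, Limma called 156 in the cardiac, 126 in the hepatic POD5 and 129 in the hepatic POD8 comparison, with 10, 8 and 6 false calls. Normalization, background correction, filters, slide, replicate block, left-out arrays and the methods' t-test and SFC were tried as alternatives. Arrays have no read depth, so precision is set by 3 arrays a group. Plots used matplotlib 3.10.9 (Python 3.11.15).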

Additional observations from a re-analysis of the deposited data

Results flagged for a closer look

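The difference between allografts and controls at POD5 was itself different in heart and liver (interaction in Limma, heart minus liver, on the log2 scale) for Lta (3.98), Tnfrsf4 (3.25), Tnfsf9 (1.46), Tnfrsf19 (-0.87), Tnfrsf23 (-2.82), Tnfrsf17 (-2.93) and Tnfrsf13c (-3.72). For Tnfsf9, Tnfrsf17 and Tnfrsf23 no hepatic POD5 allograft or hepatic control was well above background, so their liver side lies at the background. For Lta and Tnfrsf13c no hepatic control was. With slide as a random block Tnfrsf23 (-3.07), Tnfrsf17 (-3.02) and Tnfsf9 (1.67) were called, and Lta (3.66, adjusted p = 0.0913), Tnfrsf4 (3.11, adjusted p = 0.0746), Tnfrsf13c (-3.96, adjusted p = 0.0839) and Tnfrsf19 (-0.90, adjusted p = 0.116) were not. Without hepatic control 1 Tnfrsf4 (2.51, adjusted p = 0.00897), Lta (3.71, adjusted p = 0.0467), Tnfrsf17 (-2.88) and Tnfrsf23 (-2.92) were called. The cardiac controls lay on a slide and in a scan period of their own, which cannot be told apart from their group. Organ cannot be told apart from donor and recipient strains or from the placement of the graft.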

How the results depend on the processing

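At the brightest probe, no called difference of a member or signalling gene changed sign under the alternatives compared. The second probe of Tnfrsf1b was of opposite sign in the liver, uncalled (-0.06 and -0.45). Numbers called are members, and signalling genes where so named. Shares of all genes called were computed for the main processing alone, so counts under the alternatives have no share beside them. The share at an unadjusted p under 0.05 was computed over all probes for POD8 against POD5 alone. Whether these counts exceed those of all genes was not tested. With limma and Bonferroni adjustment 0 members and 0 signalling genes were called in the heart (members with an unadjusted p under 0.05: 24), at hepatic POD5 (12) and at POD8 (16), 0 in the interaction and 1 between controls. The methods' t-test called 0 at hepatic POD5 (12 unadjusted) and, with Bonferroni, 0 in the heart, at both hepatic days and between controls. SFC called 5 in the heart and 1 between controls, with 1 signalling gene in each comparison with controls and 1 member at POD8 against POD5. SFC with Bonferroni called 2 in the heart, 3 at hepatic POD5, 4 at POD8, 1 at POD8 against POD5 and 0 between controls, with signalling genes at 0, 0 and 1.

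One fit of all 5 groups called 15 members (14 higher, 1 lower) and 8 signalling genes at hepatic POD5, and keeping only probes well above background 5 signalling genes there. Scaling to the 75th percentile called 15 at POD8 (12 higher, 3 lower) and moved the median of all probes to 0.47 in the heart, -0.38 at hepatic POD5 and -0.46 at POD8. Slide as a random block gave 3 at hepatic POD5 and 3 in the interaction, and as a fixed block 0 members and 0 signalling genes at POD8. Same-numbered arrays did not deviate together (correlations of -0.12 to 0.09), so the replicate block pairs nothing: it called 0 members and 0 signalling genes at either hepatic day and 11 signalling genes in the heart.

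Without 1 array the counts ranged from 16 to 21 in the heart, 0 to 5 at hepatic POD5, 3 to 12 at POD8, 0 to 0 at POD8 against POD5, 2 to 7 in the interaction and 11 to 21 between controls. For signalling genes they were 12 to 21, 0 to 2 and 1 to 3. Quantile normalization within each organ moved the median of all probes to 0.95 between controls, calling 27 members, and was not compared there because the organs then share no scale. The t-test and SFC were not run for the interaction. The cause of these changes was not tested, and probes near background limit the dim members.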
